A study of Homo sapiens with 4 samples.

Results

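The inflammasome and gasdermin genes described here are 10 human genes chosen by name: the receptors *NOD1*, *NOD2* and *NLRP3*, the adaptor *PYCARD*, the caspases *CASP1* and *CASP4*, the cytokine *IL18* and the gasdermins *GSDMB*, *GSDMD* and *GSDME*. All 10 had a row among the 61544 genes of the deposited count table, and their positions are those of GENCODE 44 on hg38. Their RNA was measured in HT29 and HCT116, human colorectal cancer lines of epithelial origin, grown in the same medium with serum and with a mycoplasma prevention reagent. Each line was sequenced as 1 control library and as 1 library made after 24 h in lipopolysaccharide (LPS, the outer membrane lipid of Gram-negative bacteria) at 1 ug/mL, which was used to set up an in vitro model of inflamed intestinal epithelium. No condition has a second library, each line is a single tumour-derived model, and the labels name no other agent or genetic change. The study set these lines side by side because they differ in their baseline level of the glucocorticoid receptor.

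Inflammasomes are protein platforms that form when a receptor such as NLRP3 senses damage or infection, and the adaptor ASC, encoded by *PYCARD*, then gathers and activates caspase-1. Caspase-1 cuts the precursors of interleukin-1 beta and IL-18, and it cuts gasdermin D, whose freed part forms pores in the plasma membrane and ends in a lytic death called pyroptosis. Caspase-4 binds LPS inside the cell and cuts gasdermin D without an inflammasome receptor, and in the intestinal epithelium these routes help to expel infected cells, while NOD1 and NOD2 sense fragments of bacterial peptidoglycan and signal through NF-kB.

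The promoter windows of 4 members are shown, because each of these genes was near 0 in 1 line and clearly expressed in the other, and the CG dinucleotides, the sites of DNA methylation, are marked in them. The sequences are from RefSeq on GRCh38.p14, run from 250 bases before to 50 bases after the start of the gene, are written 5′ to 3′ on the strand of the gene, and have each CG in capitals. *GSDME* is at chr7:24757415-24757714 (minus strand), *PYCARD* at chr16:31202711-31203010 (minus strand), *NLRP3* at chr1:247415923-247416222 (plus strand) and *NOD2* at chr16:50696698-50696997 (plus strand), and the start used for *NOD2* lies 3342 bases from the start of its canonical GENCODE transcript.
GSDME: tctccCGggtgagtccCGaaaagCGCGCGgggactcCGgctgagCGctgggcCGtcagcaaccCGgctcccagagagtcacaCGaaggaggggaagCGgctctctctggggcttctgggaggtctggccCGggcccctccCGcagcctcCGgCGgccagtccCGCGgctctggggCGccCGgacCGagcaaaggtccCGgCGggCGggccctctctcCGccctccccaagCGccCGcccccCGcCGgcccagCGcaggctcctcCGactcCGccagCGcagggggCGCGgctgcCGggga
PYCARD: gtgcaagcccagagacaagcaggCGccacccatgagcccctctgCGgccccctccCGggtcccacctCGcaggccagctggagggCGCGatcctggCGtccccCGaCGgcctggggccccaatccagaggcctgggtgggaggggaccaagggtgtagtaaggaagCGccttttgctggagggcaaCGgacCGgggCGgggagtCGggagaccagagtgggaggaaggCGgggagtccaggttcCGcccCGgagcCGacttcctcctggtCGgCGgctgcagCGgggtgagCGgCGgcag
NLRP3: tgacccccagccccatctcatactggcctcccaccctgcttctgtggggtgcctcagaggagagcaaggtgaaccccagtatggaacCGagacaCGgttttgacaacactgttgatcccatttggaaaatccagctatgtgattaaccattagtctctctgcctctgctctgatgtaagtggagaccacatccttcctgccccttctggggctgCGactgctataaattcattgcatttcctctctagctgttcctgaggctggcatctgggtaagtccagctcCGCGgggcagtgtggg
NOD2: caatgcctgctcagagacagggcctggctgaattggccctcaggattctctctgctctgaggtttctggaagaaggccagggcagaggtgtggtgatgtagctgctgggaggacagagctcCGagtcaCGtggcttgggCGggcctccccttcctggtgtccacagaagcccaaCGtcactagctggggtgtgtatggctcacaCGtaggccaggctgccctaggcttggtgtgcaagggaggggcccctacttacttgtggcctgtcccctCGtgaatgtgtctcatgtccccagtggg

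Total counts ran from 19105058 to 21268959 per library, and mitochondrial transcripts took 3.75% of the HT29 control library and 4.29% of its LPS library, and 5.01% and 7.16% of those of HCT116. Pairs of values for a line are given below with the control library first. Of 9 markers of intestinal epithelium, 7 reached 1 CPM (counts scaled to library size) in any library, *EPCAM* and *KRT8* were high in all 4 libraries, and *KRT20* was at 0 in all of them. *VIL1*, which encodes the brush border protein villin, had 2637 and 3004 counts in the HT29 libraries and 4 and 0 in those of HCT116. *CDX2*, of the same 9 markers, went the other way, with 18 and 39 counts in HT29 against 474 and 572 in HCT116. By CPM, *KRT19* was also somewhat higher in HCT116, and *EPCAM*, *CDH1*, *KRT8* and *KRT18* were higher in HT29. The leukocyte gene *PTPRC* had 0, 2, 0 and 0 counts. The 8 monocyte markers summed to 1036 and 1051 CPM in HT29, nearly all of it *LYZ* (18532 and 20709 counts), and to 2.12 and 2.17 CPM in HCT116. Of these 8, 3 reached 1 CPM in any library, *LYZ* and *CD14* (7.76 and 6.90 CPM) in HT29 and *ITGAM* (1.15 CPM in the control) in HCT116, while *MARCO* and *TYROBP* were at 0 in all 4. The 5 fibroblast markers summed to 4.49 and 3.02 CPM in HT29 and to 98.6 and 97.1 CPM in HCT116, nearly all of it *COL1A1*, with *COL1A2*, *DCN* and *PDGFRA* at 0 throughout. The part of these markers in the differences between the lines was not tested. In such bulk samples, fewer cells that express a gene and less of its RNA per cell cannot be told apart.

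The lines differed in most of these genes, and LPS was followed by a change past the size threshold in 1 of them. CPM were normalized by TMM, a scaling of library sizes, and the lines were compared over all 4 libraries with edgeR's quasi-likelihood test, LPS as a block and Benjamini-Hochberg adjustment, for genes whose mean CPM reached 1. Of the 9 members tested, 5 were higher in HCT116 and 3 were higher in HT29 at an adjusted p under 0.05, against 38.6% and 38.0% of the 14516 genes tested, and all 8 differed by more than 1 on the log2 scale, against 39.9% of all genes. Since 76.6% of all genes were called in either direction, a call alone says little, and 5 members (*GSDMD*, *GSDME*, *PYCARD*, *NLRP3* and *NOD2*) passed the expression filter through 1 line only and so had to differ. In this test the control and LPS libraries of a line stood in for replicates, with 1 residual degree of freedom, so its p-values do not speak to repeat cultures.

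Among the receptors, *NOD2* and *NLRP3* each had more than 1 count in 1 line alone, and *NOD1* had similar levels in both. *NOD1* (ENSG00000106100, chr7:30424527-30478784), the receptor for peptidoglycan of mostly Gram-negative bacteria, had 158 and 156 counts in the HT29 libraries against 203 and 174 in those of HCT116. After normalization the lines overlapped, with a log2 difference (HCT116 minus HT29) of 0.07 ± 0.20 (SE, edgeR adjusted p = 0.769) and a ratio of the summed counts of 1.05 (95% counting interval 0.902 to 1.22).

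*NOD2* (ENSG00000167207, chr16:50693588-50733077), the receptor for muramyl dipeptide and a susceptibility gene of Crohn's disease, had 0 and 0 counts in HT29 against 215 and 203 in HCT116. A count of 0 allows up to 0.166 CPM in the HT29 control and 0.151 CPM in HT29 with LPS (3 counts). With the floor of 3 counts taken instead over both HT29 libraries together, *NOD2* was at least 122-fold higher in HCT116, and the 95% counting interval of the same ratio begins at 98.7 (edgeR adjusted p = 4.06e-11). *NLRP3* (ENSG00000162711, chr1:247416156-247449108) showed the opposite pattern, with 65 and 81 counts in the HT29 libraries and 1 and 0 in those of HCT116. The ratio of the summed counts was 167 (95% counting interval 29.5 to 6638), and the fitted log2 difference was -7.04 ± 0.77 (SE, edgeR adjusted p = 5.86e-08). Of the exon bases of *NLRP3*, 66.0% are shared in GENCODE 44 with a gene model that is not in the deposited table.

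**Figure D1:**
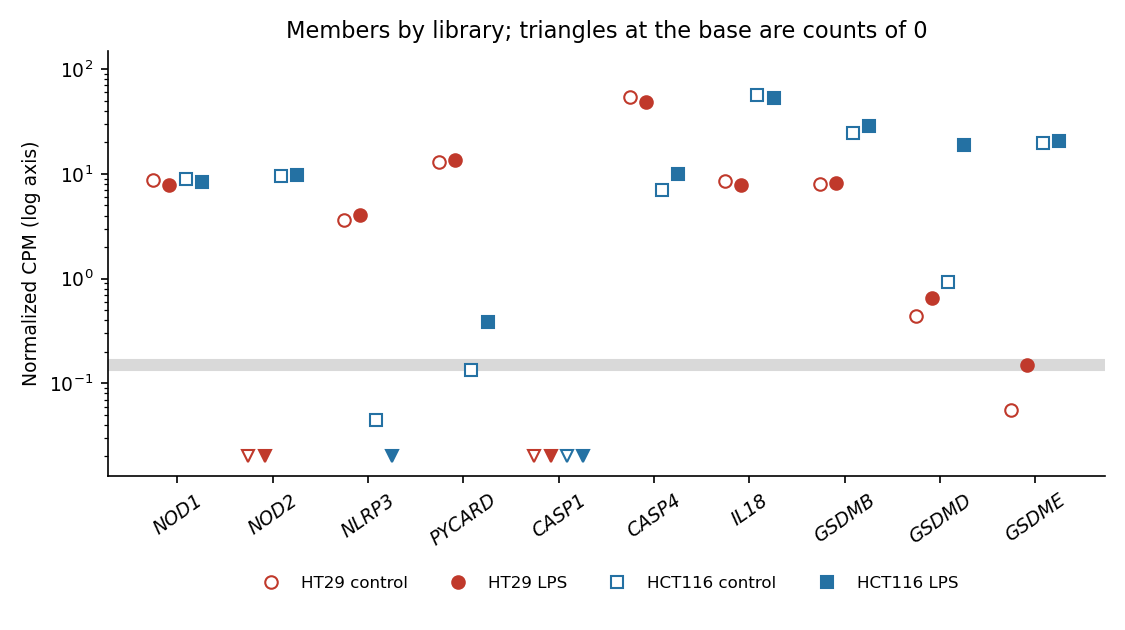
Normalized CPM (log axis) of the 10 genes in the HT29 control, HT29 LPS, HCT116 control and HCT116 LPS libraries, 1 point per library, with triangles at the base for counts of 0 and a grey band for the level of 3 counts. *NOD2* and *GSDME* sit at or near 0 in HT29, *NLRP3* and *PYCARD* sit near 0 in HCT116, *CASP1* has 0 counts throughout, and *GSDMD* is high in the HCT116 LPS library alone.

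*PYCARD* (ENSG00000103490, chr16:31201486-31203450), the adaptor that links inflammasome receptors to caspase-1, followed the direction of *NLRP3*. It had 236 and 269 counts in HT29 against 3 and 8 in HCT116, and the libraries of the lines did not overlap. The level in HT29 was 52.5-fold higher by summed counts (95% counting interval 29.1 to 106), with a log2 difference of -5.68 ± 0.36 (SE, edgeR adjusted p = 1.15e-11). The antisense gene *PYCARD-AS1* covers 59.7% of its exon bases, and that gene had 1, 0, 0 and 0 counts.

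*CASP1* (ENSG00000137752, chr11:105025397-105035250), the central inflammasome protease, had 0 counts in all 4 libraries, which allows at most 0.133 to 0.166 CPM per library. It was not tested for this reason. Its exons overlap no other gene, and no copy of its transcript was found elsewhere in the reference. The protein-coding genes beside it on chromosome 11, *CASP5*, *CARD16* and *CARD18*, were also at 0 in every library.

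*CASP4* (ENSG00000196954, chr11:104942866-104969366), the intracellular LPS receptor, lies next to this run of genes and was the member with the most counts in HT29. It had 969 and 975 counts in the HT29 libraries and 157 and 205 in those of HCT116. HT29 was 6.14-fold higher by summed counts (95% counting interval 5.49 to 6.89), with a log2 difference of -2.62 ± 0.14 (SE, edgeR adjusted p = 1.45e-12). Its inhibitor *SERPINB1* was also higher in HT29, with 4776 and 5321 counts against 1454 and 1289.

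*IL18* (ENSG00000150782, chr11:112143253-112164096), the cytokine that epithelial cells store as a precursor, had 153 and 155 counts in HT29 against 1279 and 1095 in HCT116. HCT116 was 6.74-fold higher (95% counting interval 5.98 to 7.62), with a log2 difference of 2.75 ± 0.12 (SE, edgeR adjusted p = 4.74e-14). Per kilobase of exon, *IL18* was the highest member in both HCT116 libraries, at 21.7 CPM per kb in the control, while *CASP4* and *PYCARD* led in the HT29 control, at 8.06 and 7.88 CPM per kb.

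*GSDMB* and *GSDME* were higher in both HCT116 libraries, and *GSDMD* was high in 1 of them. *GSDME* (ENSG00000105928, chr7:24698355-24757940), which caspase-3 cuts and which turns apoptosis into lytic death, had 1 and 3 counts in the HT29 libraries and 450 and 429 in those of HCT116. This was a 192-fold ratio of summed counts (95% counting interval 74.8 to 707), with a log2 difference of 7.51 ± 0.34 (SE, edgeR adjusted p = 6.48e-14), and 4.70% of all tested genes differed more. *GSDMB* (ENSG00000073605, chr17:39904595-39919854), which granzyme A cuts and which lies in a region of chromosome 17 tied to asthma and inflammatory bowel disease, had 143 and 163 counts in HT29 against 554 and 588 in HCT116. It was 3.26-fold higher in HCT116 (95% counting interval 2.88 to 3.72), with a log2 difference of 1.71 ± 0.16 (SE, edgeR adjusted p = 4.75e-09).

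*GSDMD* (ENSG00000104518, chr8:143553207-143563062), the pore-forming substrate of caspase-1 and caspase-4, was low in 3 libraries and high in 1. It had 8 and 13 counts in HT29, 21 counts in the control library of HCT116 and 395 counts in its LPS library, and it passed the expression filter through this last library alone. Its difference between the lines therefore rested on the HCT116 LPS library. The log2 ratio of HCT116 to HT29 was 0.92 between the control libraries (95% counting interval -0.17 to 2.45) and 4.67 between the LPS libraries (95% counting interval 4.07 to 5.79), beside 3.81 ± 0.54 over all 4 libraries (SE, edgeR adjusted p = 2.54e-06).

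**Figure D2:**
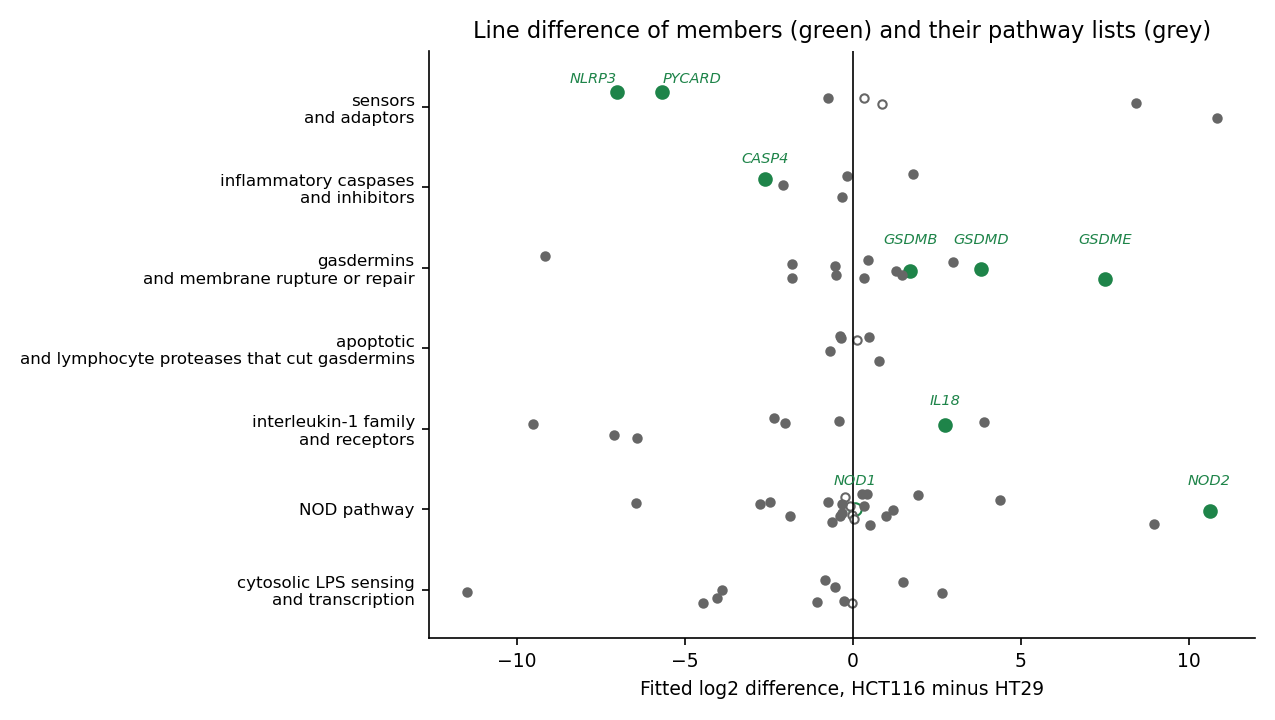
Fitted log2 difference between the lines (HCT116 minus HT29) for the members (green, named) and the other tested genes of 7 pathway lists (grey), filled where the edgeR adjusted p was under 0.05, with a small vertical scatter to part the points. *NLRP3*, *PYCARD* and *CASP4* lie to the left (higher in HT29), *NOD1* lies at 0, and *IL18*, the 3 gasdermins and *NOD2* lie to the right.

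LPS was compared with the control within each line as the log2 ratio of normalized CPM, with a prior count of 2, and a ratio past 0.58 in size, the threshold used in the study for its array data, was counted. With 1 library per condition there is no test within a line, and the 95% Clopper-Pearson intervals cover counting error only. In HT29, 0 of 6 members whose mean CPM reached 1 in the line (measured members) passed 0.58, against 6.20% of 13201 genes. In HCT116, 1 of 7 passed it, against 5.90% of 14337 genes. The medians over all genes were -0.0076 and -0.0025.

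*GSDMD* was the member past the threshold, with a log2 ratio of 4.22 in HCT116 (95% counting interval 3.73 to 5.07). In the edgeR quasi-likelihood test over both lines, with the line as a block, its log2 difference was 3.49 ± 0.53 (SE, adjusted p = 0.00264), and it was the 1 member of 9 called, against 0.220% of all genes. Since the HCT116 LPS library alone brought it past the expression filter, its entry into this test depended on the value tested. The other 8 had adjusted p-values from 0.91 to 0.99 in that test. The call rested on the HCT116 libraries, since *GSDMD* had 8 and 13 counts in HT29. The call was lost with DESeq2 size factors in edgeR (log2 difference 3.49, adjusted p = 0.0515), with DESeq2 without independent filtering (log2 difference 2.60, adjusted p = 0.551) and without the line as a block (log2 difference 3.83, edgeR adjusted p = 1). It was kept with library size alone as the scaling (edgeR adjusted p = 0.0337), with no filter (1e-18) and with a minimum of 5 CPM (2.69e-17). The minimum of 5 CPM was also passed through the HCT116 LPS library alone. In all these fits the lines stood in for replicates, so the p-values do not speak to repeat cultures.

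The other measured members stayed within 0.58 in each line in which they were measured. *PYCARD* in HCT116 and *GSDME* in HT29, with 3 and 8 and with 1 and 3 counts, fell below the level for a ratio, as did *NLRP3* in HCT116 and *NOD2* in HT29. *CASP4* gave ratios in opposite directions, -0.13 in HT29 (95% counting interval -0.26 to -0.00011) and 0.51 in HCT116 (95% counting interval 0.21 to 0.82), and no test of this contrast between the lines was possible with single libraries. With library size alone as the scaling, its interval in HT29 ran from -0.25 to 0.01. *GSDMB* had ratios of 0.05 in HT29 (-0.28 to 0.38) and 0.21 in HCT116 (0.04 to 0.38). *IL18* had ratios of -0.12 (-0.45 to 0.21) and -0.10 (-0.21 to 0.02), and *NOD1* of -0.16 (-0.49 to 0.17) and -0.09 (-0.39 to 0.21). These 3 genes and *CASP4* are the 4 members measured in both lines. In the line in which they were measured, *PYCARD* and *NLRP3* had ratios of 0.05 (-0.21 to 0.31) and 0.17 (-0.31 to 0.67), and *NOD2* and *GSDME* had ratios of 0.04 (-0.24 to 0.33) and 0.06 (-0.13 to 0.25). A change of the size of the threshold was outside the counting interval of each of them but *CASP4* in HCT116 and *NLRP3* in HT29.

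**Figure D3:**
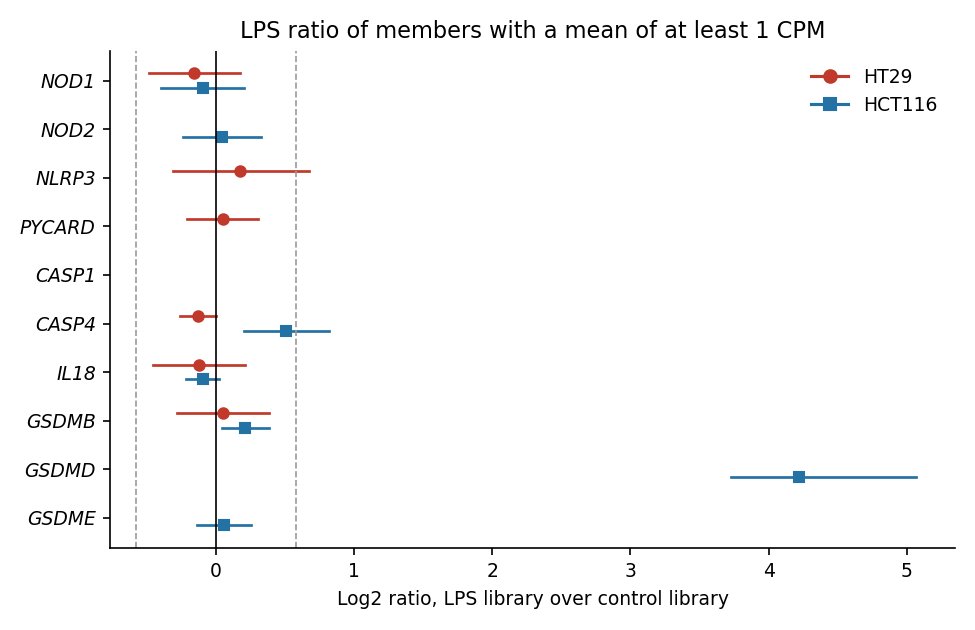
Log2 ratio of the LPS library to the control library in HT29 (red circles) and HCT116 (blue squares) for members whose mean in the line reached 1 CPM, with 95% counting intervals and dashed lines at a log2 ratio of 0.58 in either direction. *GSDMD* in HCT116, at 4.22, stands past the dashed line, and the ratios of the other members lie between -0.16 and 0.51.

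*GSDMD* was the only member with a near-identical copy elsewhere in the reference, on an alternate contig of chromosome 8 that holds its whole canonical transcript at 100% identity. Reads of such a gene can map to more than 1 place, and whether the alternate contigs were part of the alignment and how such reads were counted is not given in the sources used here. A copy was defined as at least 50% of the canonical transcript aligned elsewhere at 98% identity or more. Of 687 measured genes with a copy, 3.78% passed a log2 ratio of 2 in HCT116, against 0.022% of 13650 genes without one, and the shares in HT29 were 3.55% and 0.0717%. The share of mitochondrial transcripts was also highest in the HCT116 LPS library, at 7.16%. The part of either in the *GSDMD* value was not tested.

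The alternate contig holds copies of 14 genes, *GSDMD* among them, and 6 of the 14 measured in HCT116 passed 0.58 there. Of all measured genes with a copy, 19.7% passed 0.58 in HCT116, against 5.21% of genes without one. These genes are named after their values were seen. *EEF1D*, a translation elongation factor, had 242 counts in the HCT116 control and 1339 with LPS, and 1372 and 99 in HT29. *PYCR3*, an enzyme of proline synthesis, had 8 and 61 counts in HCT116 (log2 ratio 2.75) and 11 and 12 in HT29. *MAPK15* had 23 and 47 counts in HCT116, a log2 ratio of 1.09, and *FAM83H* and *MROH6* had log2 ratios of -1.12 each there. In HT29, 2 of the 11 measured genes passed 0.58, *EEF1D* at -3.91 and a gene without a symbol at -0.90. The shares over all measured genes in HT29 were 20.1% with a copy and 5.48% without one.

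**Figure D4:**
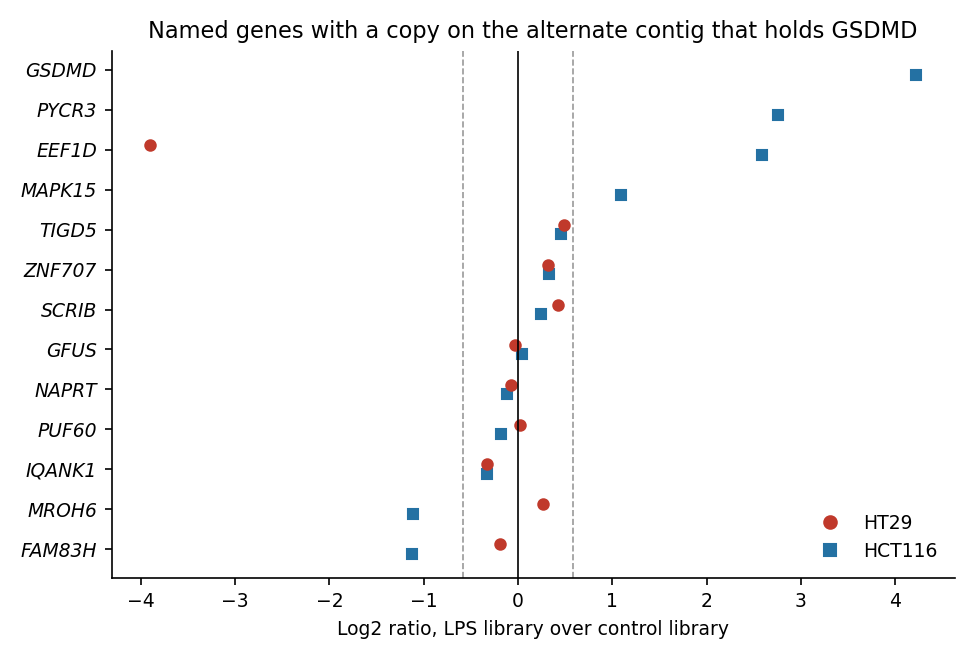
Log2 ratio of the LPS library to the control library in HT29 (red circles) and HCT116 (blue squares) for the 13 genes with a symbol whose copies lie on the same alternate contig as *GSDMD*, where the mean in the line reached 1 CPM, with dashed lines at a log2 ratio of 0.58 in either direction. *GSDMD*, *PYCR3* and *EEF1D* lie past 2 in HCT116, and *EEF1D* lies at -3.91 in HT29.

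The 5 tested genes whose pattern lay nearest to that of *GSDMD* were *DAXX*, *CDKN1C*, *ECEL1P1*, *LINC02043* and *DENND11*, by the Euclidean distance between the log2 CPM (pseudocount 0.1) of the 4 libraries, each gene centred on its mean. The distances ran from 2.08 to 2.25. *DAXX*, the nearest, had 8, 14, 22 and 76 counts in the order of libraries used above. *DAXX*, *CDKN1C* and *DENND11* have a copy, and *ECEL1P1* and *LINC02043* have none. Among all tested genes, 717 have a copy and 13799 have none. The part of the copies in these patterns was not tested.

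Other genes of the pathway were taken as 7 lists, chosen by function, and *GSDMD* was the only gene of any list called in the LPS test over both lines. Of all tested genes, 38.6% were called higher in HCT116 and 38.0% higher in HT29. With LPS, 6.20% of measured genes in HT29 and 5.90% in HCT116 passed 0.58. List genes such as *NLRP1*, *NLRP4*, *IL1R1*, *IL1R2*, *IL1RL2*, *IL1RN*, *CARD6*, *TLR4*, *GBP2* and *GBP3* reached a mean of 1 CPM in 1 line only. They passed the filter through that line and so had to differ, and the counts and medians below include them. Among 19 sensors and adaptors, 7 were tested, of which 2 were higher in HCT116, 3 were higher in HT29 and 2 were not called (median log2 difference 0.34, against 0.02 for all genes). *NLRP1*, an inflammasome receptor of barrier epithelia, followed *NOD2*, with 0 and 0 counts in the HT29 libraries and 254 and 236 in those of HCT116, and *NEK7*, the partner of NLRP3, was lower in HCT116, with a log2 difference of -0.74. *NAIP*, *NLRP7*, *NLRP10* and *IFI16* were at 0 in all 4 libraries, and all of these but *IFI16* have a near-identical copy on an alternate contig, and the part of the copies in these values was not tested. With LPS, 0 of 4 sensors measured in HT29 passed 0.58, and 2 of 6 in HCT116 passed it downward, both named after their values were seen. *NLRP4* had 63 and 31 counts there (log2 ratio -0.85, 95% counting interval -1.56 to -0.25), and *NLRP6* had 38 and 20 (-0.74, -1.66 to 0.02).

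Among 12 inflammatory caspases and their inhibitors, 5 were tested, of which 1 was higher in HCT116 and 4 were higher in HT29 (median log2 difference -0.33), and 6 were at 0 in all libraries. *SERPINB9*, which inhibits granzyme B, was the 1 higher in HCT116, with 139 and 227 counts in HT29 against 752 and 662 in HCT116. *DPP8*, which holds NLRP1 inactive, differed by -0.33. Among 10 apoptotic and lymphocyte proteases that cut gasdermins, 6 were tested, 2 were higher in HCT116 and 3 in HT29 (median -0.12). *CASP9* was higher in HCT116 by a log2 difference of 0.76 and *CTSB* by 0.48, and *CASP6* and *CASP8* were lower in HCT116, with log2 differences of -0.68 and -0.40. No measured gene of either list passed 0.58 with LPS in either line.

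Among 15 gasdermins and genes of membrane rupture or repair, 13 were tested and all were called, against 76.6% of all genes. Of the 13, 8 were higher in HCT116 and 5 were higher in HT29 (median 0.46). *CHMP4B* and *CHMP4C*, which encode subunits of the ESCRT-III complex that repairs gasdermin pores, were lower in HCT116, with log2 differences of -1.81 and -1.82. With LPS, *GSDMD* passed 0.58 upward in HCT116, and of 10 measured in HT29, 1 (*CHMP4A*, named after its value was seen, log2 ratio -0.90, with 69.2% of its exon bases shared with other genes) passed it downward.

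Among 19 genes of the interleukin-1 family and its receptors, 8 were tested, of which 2 were higher in HCT116 and 6 were higher in HT29 (median -2.19). *IL1R1*, the signalling receptor, had 17 and 13 counts in the HT29 libraries and 259 and 255 in those of HCT116, a log2 difference of 3.90. The antagonist *IL1RN* had 431 and 459 counts in HT29 against 3 and 4 in HCT116. The decoy receptor *IL1R2* had 179 and 221 counts in the HT29 libraries and 3 and 2 in those of HCT116. The other genes higher in HT29 were the co-receptor *IL1RAP* (log2 difference -2.36), *IL1RL2* (-9.54), *SIGIRR* (-2.02) and *IL18BP* (-0.42), named after their values were seen. *IL1RL2* had 67 and 110 counts in the HT29 libraries and 0 and 0 in those of HCT116, so the size of its fitted difference is not well determined. No measured gene of this list passed 0.58 with LPS, in 7 genes measured in HT29 and 5 in HCT116.

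Among 26 genes of the NOD pathway, 24 were tested, of which 10 were higher in HCT116, 9 were higher in HT29 and 5 were not called (median -0.0001). *NLRC5*, an activator of MHC class I genes, had 11 and 19 counts in HT29 against 348 and 361 in HCT116. *CARD6* had 296 and 340 counts in the HT29 libraries and 0 and 8 in those of HCT116, and *CARD9*, the partner of NOD2 in myeloid cells, had 173 and 272 against 44 and 29, with 51.6% of its exon bases shared with another gene model. With LPS, 0 of 20 measured in HT29 and 1 of 23 in HCT116 passed 0.58, which was *NLRC3*, named after its value was seen, with 37 and 19 counts (log2 ratio -0.77, 95% counting interval -1.71 to 0.0018).

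Among 16 genes of LPS sensing and of the transcription of the pathway, 11 were tested, of which 2 were higher in HCT116, 8 were higher in HT29 and 1 was not called (median -0.83). *TLR4*, the surface receptor of LPS, had 313 and 362 counts in HT29 against 0 and 0 in HCT116. Its co-receptor *CD14* had 140 and 137 counts in the HT29 libraries and 12 and 9 in those of HCT116, and their partner *LY96* had 0, 0, 0 and 1. The guanylate-binding proteins *GBP2* and *GBP3*, which coat cytosolic bacteria and recruit caspase-4, were lower in HCT116, with log2 differences of -4.45 and -4.05. No measured gene of this list passed 0.58 with LPS, in 10 genes measured in HT29 and 7 in HCT116, and *GBP2* in HCT116, with 2 and 10 counts, was below the level for a ratio.

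The promoter windows were compared with the line differences. Of the 10 members, 6 have a window among the 35116 in the RefSeq table, and *GSDMD*, *GSDMB*, *CASP1* and *IL18* have none. The motif searched was CG, which reads the same on both strands, and the median window holds 14 in 300 bases. *GSDME* has 35 (14.1% of windows have at least as many), *NOD1* has 32 (18.9% of windows have at least as many) and *PYCARD* has 23 (35.8% of windows have at least as many). *CASP4* has 3, *NLRP3* has 5, and *NOD2* has 6 and 5 in its 2 windows (81.8%, 70.4%, 66.3% and 70.4% of windows have at least as many). Of the members near 0 in 1 line, *GSDME* and *PYCARD* have windows rich in CG, and *NLRP3* and *NOD2* have windows poor in CG. *NOD1*, with a rich window, had similar levels in both lines. The starts used for the windows of *NOD2* lie 3342 and 5774 bases from the start of its canonical GENCODE transcript. Methylation was not measured here, and its part in the line differences was not tested.

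**Figure D5:**
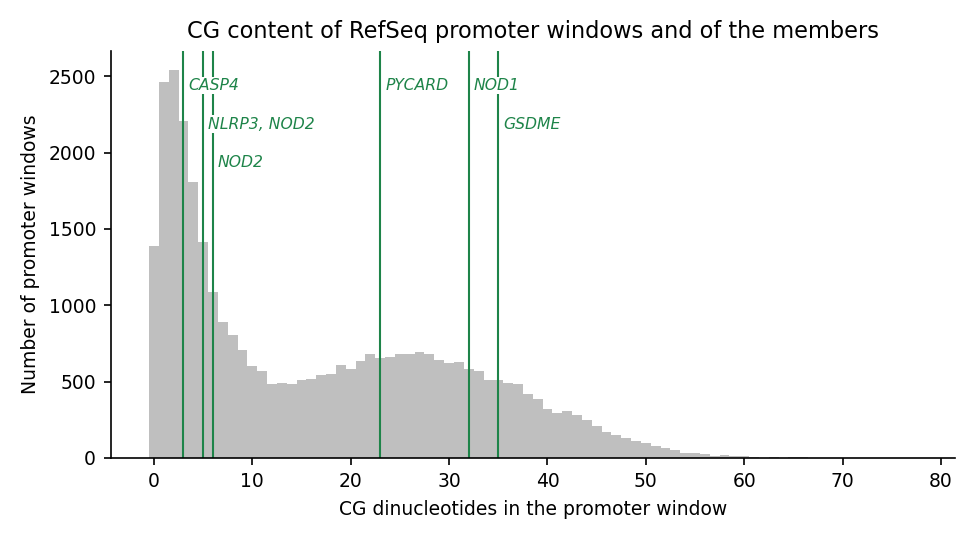
Number of RefSeq promoter windows (y axis) by the number of CG dinucleotides in their 300 bases (x axis), with green lines for the 7 windows of 6 members. *CASP4*, *NLRP3* and *NOD2* lie at 3 to 6, below the median of 14, and *PYCARD*, *NOD1* and *GSDME* lie at 23 to 35.

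The nearest protein-coding genes to *GSDME*, *NOD2* and *NLRP3* differed less between the lines than these members or were at 0 in all libraries. *PALS2* and *OSBPL3*, beside *GSDME*, were expressed in both lines, with log2 differences of 0.56 and 1.49 against 7.51 for *GSDME*. *CYLD*, beside *NOD2*, had 236 and 214 counts in HT29 against 389 and 330 in HCT116, a log2 difference of 0.48, and *SNX20* on the other side was at 0. *ZNF496*, beside *NLRP3*, differed by 0.56 against -7.04, and *OR2B11* on the other side was at 0. Beside *PYCARD*, *TRIM72*, which encodes a membrane repair protein of muscle, had 19 and 17 counts in the HT29 libraries and 2232 and 1724 in those of HCT116, a log2 difference of 6.57 in the direction opposite to that of *PYCARD*.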

How the data were processed

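RNA of HT29 and HCT116 was sequenced as 1 control and 1 LPS library per line. The table deposited by the authors holds raw counts for every gene in the 4 libraries. For it, cleaned reads were aligned to hg38 by HISAT2 2.1.0 and assigned to GENCODE genes by featureCounts 2.0.1. Cutadapt 1.9 and Trimmomatic 0.39 stand in the submitters' processing notes. The annotation release and the settings for strand and multi-mapped reads: not given in the sources used here. Reads of antisense, overlapping or copied genes therefore cannot be told apart.

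Names and positions were taken from GENCODE 44, and copies were sought with minimap2 2.31-r1302 in hg38 with 261 alternate contigs. Fits used R 4.3.3 and edgeR 4.0.16, with DESeq2 1.42.0 as an alternative. The edgeR fits were tested on simulated data with the same dispersion for every gene and no change confined to a single library. These simulations do not speak to a jump such as that of *GSDMD*. The members and the 7 lists were chosen with earlier results of these data known. All 10 members were named. From each list, the rule named up to 4 called genes with the largest line difference and up to 4 with the largest LPS ratio past 0.58, at a mean of at least 5 CPM. Intervals and floors cover counting error only. Unless DESeq2 is named, p-values come from the quasi-likelihood test of edgeR. They were adjusted by the Benjamini-Hochberg method over the genes tested in each fit, which were 14516 in the main fits.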

Additional observations from a re-analysis of the deposited data

Results flagged for a closer look

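*CASP4* had log2 ratios of LPS to control of -0.13 in HT29 and 0.51 in HCT116, in opposite directions in the 2 lines. Each line has 1 library per condition, so this difference was not tested. The counts were 969 and 975 in HT29, against 157 and 205 in HCT116.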

How the results depend on the processing

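Pairing by replicate number was not possible, because each group has 1 library and all 4 carry the number 1. A block for the number has 1 level. The block for the line in the LPS test already pairs control and LPS. The 47 alternative values of the LPS ratios in HT29, the 55 in HCT116 and 121 of 122 of the line differences kept their direction, and those with a threshold or an adjusted p kept their side of it. *NOD1* between the lines was the exception, at -0.0112 with the HT29 LPS library left out and no block for LPS. Leaving out 1 library gave 7 to 8 called members, and *GSDMD* was not tested without the HCT116 LPS library, since its mean was then under 1 CPM. Some sizes moved by over 1.5 times. *GSDMD* came to 4.47 without the HT29 LPS library, 5.09 without the HCT116 control, 3.07 with DESeq2, and 0.92 between the controls alone. *GSDME* came to 8.37 without the HT29 LPS library. Between the controls alone and between the LPS libraries alone, *NOD2* came to 6.61 and 6.65, and *NLRP3* to -4.70 and -5.41. Between the LPS libraries alone, *GSDME* came to 6.38, *PYCARD* to -4.81 and *GSDMD* to 4.67. These ratios of single libraries carry the prior count of 2. *NOD2* came to 9.98 with DESeq2. Without the HCT116 control and without the HCT116 LPS library, *NLRP3* came to -9.23 (0 counts left in HCT116) and -6.25, and *PYCARD* to -5.08 and -6.57. With no filter on low counts, 1 member in HT29 and 2 in HCT116 passed 0.58, among 8871 and 7558 genes against 818 and 846, and at a minimum of 5 CPM 133 and 115 genes passed. At a size threshold of 1, 219 and 208 genes passed. Without genes that have a copy, 0 members passed in HCT116 and 0 were called over both lines, since *GSDMD* was then left out. In the test over both lines, which called 32 genes, 0 members were called with DESeq2 size factors in edgeR (14 genes), with DESeq2 without independent filtering, added after the data were seen (53 genes), and with no block for the line (0 genes), where the cause was not tested. With no filter 103 genes were called, and 136 at 5 CPM. The sign over both lines turned for *NLRP3* (-0.118) and *NOD2* (-0.0275) with DESeq2 and for *CASP4* (-0.0398) without the line block, all with adjusted p = 1. DESeq2 with independent filtering gave an adjusted p for 0 of 9 members in that test. The depth limits what can be said of genes with few counts, and no condition has a repeat library.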
